A study of Mus musculus with 32 samples.

Results

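The interleukin-6 (IL-6) family of cytokines was followed through injured mouse muscle as 10 genes, picked by symbol from the 55487 genes of the expression tables: the ligand genes Il6, Lif, Il11 and Clcf1, the receptor genes Il6ra, Il6st, Lifr, Osmr and Il11ra1, and the feedback gene Socs3. The question was which of the sorted cell types carried the message for a ligand and which the message for its receptor. All 10 genes were found once in both tables and all 10 passed the filter on low counts in each of the comparisons below. FAPs, or fibro-adipogenic progenitors, which are mesenchymal cells found between muscle fibres, held more of nearly every ligand and receptor message than the satellite cells (SC), the stem cells of muscle. Between day 3 and day 7 the satellite cell libraries gained Il6, Socs3 and 4 receptor messages, 6 of the 10 genes. Of all genes tested 29.7% were higher at day 7 in the control libraries of these cells. Marker genes of pericytes, Schwann cells and FAPs also stood higher there, and their part in the gain was not tested.

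Cytokines of this family are secreted proteins that bind a receptor specific to the ligand and then recruit the shared chain gp130, the product of Il6st, which carries the signal into the cell. JAK kinases bound to gp130 phosphorylate STAT3, and STAT3 switches on target genes, among them Socs3, whose product binds gp130 and JAK and shuts the signal down. Il6ra and Il11ra1 encode the chains that bind IL-6 and IL-11 and need gp130 for a signal, whereas Lifr and Osmr encode long chains that pair with gp130 for leukaemia inhibitory factor (LIF) and oncostatin M. In muscle, IL-6 and LIF have been studied as signals on satellite cells after injury, and FAPs are known as a source of IL-6.

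The libraries came from the supraspinatus, a rotator cuff muscle, of wild-type C57BL/6J mice that the labels give as male and 12 weeks old. Cardiotoxin, which comes from snake venom and kills muscle fibres, had been injected into every muscle. The control groups had the injury alone, and the BAT groups also received interscapular brown adipose tissue (BAT) from donor mice 3 weeks old. No uninjured muscle, sham operation or other graft was analysed here. Both muscles of a pair came from 1 mouse. At day 3 the replicate numbers of satellite cells and FAPs name different mice, and the tests pair libraries by the mouse code. Sorting on day 3 or day 7 made 8 groups of 4 libraries (SC or FAP, control or BAT, day 3 or day 7) from 8 mice. Per the labels the sort took cells without CD45 (leukocytes) and CD31 (endothelium) and with Sca1, and told satellite cells (positive) from FAPs (negative) by integrin alpha 7.

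The 32 libraries held 19776809 to 46378988 counts (median 25664917). Levels are given as CPM (counts-per-million), scaled to the total of each library, and 3 counts equal 0.0647 to 0.152 CPM. Pax7, the satellite cell transcription factor, was 21.0 to 164 CPM in satellite cell libraries and 0 to 1.20 CPM in FAP libraries. Pdgfra, a receptor gene commonly used to identify FAPs, was 251 to 436 CPM in FAPs and 0.101 to 19.1 CPM in satellite cells. Ly6a, which encodes Sca1, was 426 to 1162 CPM in FAPs and 2.38 to 42.8 CPM in the satellite cells, although the labels give Sca1 as present on both. Macrophage and monocyte genes (15 markers) summed to 1584, 1777 and 4399 CPM in 1 library each of control satellite cells, BAT satellite cells and BAT FAPs at day 3, against 5.19 to 165 CPM in the other libraries. The 4 libraries of the day 7 mouse coded 5 held 163 to 355 CPM of Xist, a transcript of female cells, and 0 CPM of the Y-linked Ddx3y, which goes against the male label. In the other 28 libraries Xist was at most 0.161 CPM. Values without the macrophage-rich libraries are given beside comparisons at day 3, and values without the mouse coded 5 beside those of Il6 at day 7.

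Stretches of 4 promoters are printed because these genes, the 3 ligands with the widest range and the feedback gene, carry the results below. They are RefSeq sequences (GRCm38.p6, the patch release of the mm10 build), 5′ to 3′ on the gene's own strand, taken upstream of the RefSeq start and stopped before any annotated exon. Capitals mark matches to the 4 motifs searched, on both strands: STAT (TTCNNNGAA), NF-kB, AP-1 (TGANTCA) and TATA box (TATAAA). The Il6 stretch is chr5:30012864-30013113 on the plus strand, the Lif stretch chr11:4257318-4257556 on the plus strand, the Il11 stretch chr7:4778142-4778391 on the minus strand (the RefSeq start used lies inside the annotated locus) and the Socs3 stretch chr11:117969452-117969616 on the minus strand.
Il6: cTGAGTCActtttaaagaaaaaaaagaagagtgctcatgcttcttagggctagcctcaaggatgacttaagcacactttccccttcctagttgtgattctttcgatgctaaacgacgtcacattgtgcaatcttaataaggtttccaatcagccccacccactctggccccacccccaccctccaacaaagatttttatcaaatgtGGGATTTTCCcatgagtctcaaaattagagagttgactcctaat
Lif: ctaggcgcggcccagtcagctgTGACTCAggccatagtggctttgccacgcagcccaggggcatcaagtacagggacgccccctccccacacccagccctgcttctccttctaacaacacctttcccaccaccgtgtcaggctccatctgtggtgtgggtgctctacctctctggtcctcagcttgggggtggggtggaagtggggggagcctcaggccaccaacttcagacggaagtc
Il11: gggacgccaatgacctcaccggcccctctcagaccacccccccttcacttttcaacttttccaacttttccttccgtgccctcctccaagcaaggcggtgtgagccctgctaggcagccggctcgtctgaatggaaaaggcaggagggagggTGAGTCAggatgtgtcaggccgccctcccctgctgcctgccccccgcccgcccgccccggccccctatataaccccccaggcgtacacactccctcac
Socs3: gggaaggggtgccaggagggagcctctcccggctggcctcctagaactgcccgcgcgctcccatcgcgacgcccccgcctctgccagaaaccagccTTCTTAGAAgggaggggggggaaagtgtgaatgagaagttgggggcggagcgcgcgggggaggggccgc

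Windows of 300 bases (250 before and 50 after the start) were at hand for 9 of the 10 genes, 12 windows in all. Socs3 was the 1 gene with the STAT motif, 154 bases before its start, and 8.30% of all 32851 windows hold that motif. Il6 was the 1 gene with the NF-kB motif, 44 bases before its start, against 1.63% of all windows. The AP-1 motif lay 249 bases before the start of Il6, 228 before that of Lif and 98 before that of Il11, and in Osmr inside the transcript, while 7.81% of all windows hold it. The exact letters TATAAA were in none of the windows of the family and in 13.6% of all. Variants of the TATA box, such as the tatataa in the Il11 stretch, were not searched. These are matches of letters and say nothing of binding.

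The ligand genes came first. Il6 (chromosome 5, mm10 positions 30013114 to 30019981, plus strand) encodes the founding cytokine of the family. In control FAPs at day 3 it stood at 161, 451, 383 and 261 CPM (replicates 1 to 4), and in the control satellite cells of that day at 9.17, 3.30, 9.19 and 0.960 CPM. At day 7 it was 255, 296, 888 and 236 CPM in control FAPs and 50.3, 231, 152 and 59.9 CPM in satellite cells of the same muscles. The FAP libraries were all above the satellite cell libraries on both days, and the gap was narrower at day 7. The 888 CPM came from the mouse coded 5, the one with Xist.

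Il6 was 314 ± 129 CPM (SD, n = 4) in control FAPs at day 3 and 5.65 ± 4.18 CPM in control satellite cells. Ordered by mean, the groups ran from BAT FAPs at day 3 (503 CPM) through BAT FAPs at day 7 (446), control FAPs at day 7 (419) and control FAPs at day 3 (314) to BAT satellite cells at day 7 (188), control satellite cells at day 7 (123), BAT satellite cells at day 3 (18.8) and control satellite cells at day 3. The 1 pair of neighbours in that order whose libraries did not overlap was the satellite cells of day 7 above those of day 3.

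Lif (chromosome 11, 4257557 to 4272514, plus strand) encodes leukaemia inhibitory factor. It was 44.3, 96.8, 96.5 and 73.6 CPM in control FAPs at day 3 and 94.6, 166, 212 and 130 CPM in BAT FAPs of that day. In satellite cells Lif lay between 1.78 and 14.9 CPM at day 3 and between 2.35 and 28.0 CPM at day 7. By mean, FAPs of day 3 were the richest in Lif. The FAP means of day 7 were lower, at 43.0 ± 24.6 CPM (control) and 52.4 ± 31.8 CPM (BAT, SD, n = 4). The FAP libraries of the 2 days overlapped, with 77.6 (control) and 97.8 CPM (BAT) in the day 7 mouse coded 3.

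Il11 (chromosome 7, 4772373 to 4782859, minus strand) encodes IL-11, a cytokine known from fibroblasts. Control FAPs held 38.0, 70.3, 47.0 and 47.2 CPM at day 3 and 4.94, 9.44, 10.6 and 4.46 CPM at day 7, with no overlap between the days. The satellite cell libraries held 0.366 to 7.57 CPM at day 3 and 0.0341 to 10.2 CPM at day 7, and the lowest of these is below the level of 3 counts. Clcf1 (chromosome 19, 4214238 to 4223490, plus strand), which encodes a cardiotrophin-like cytokine, was the ligand with the smallest difference between the cell types: its group means were 11.0 to 20.5 CPM and every pair of neighbouring groups overlapped.

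Messages of different genes were compared per kilobase of exon. In control FAPs at day 3 the ligands stood at 129 CPM per kb (Il6), 24.3 (Il11), 17.9 (Lif) and 4.98 (Clcf1). Among the receptors Il11ra1 was at 39.2 CPM per kb, Il6st at 19.2, Osmr at 8.60, Lifr at 4.81 and Il6ra at 1.06. Il6ra, the chain that binds IL-6, was therefore the lowest of the 10 messages per kilobase in the cells with the highest Il6. In control satellite cells at day 7 the order began with Socs3 (171 CPM per kb) and Il6 (50.8) and again ended with Il6ra (0.230). The lengths are the union of all annotated exons, so a gene with many isoforms is understated.

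**Figure D1:**
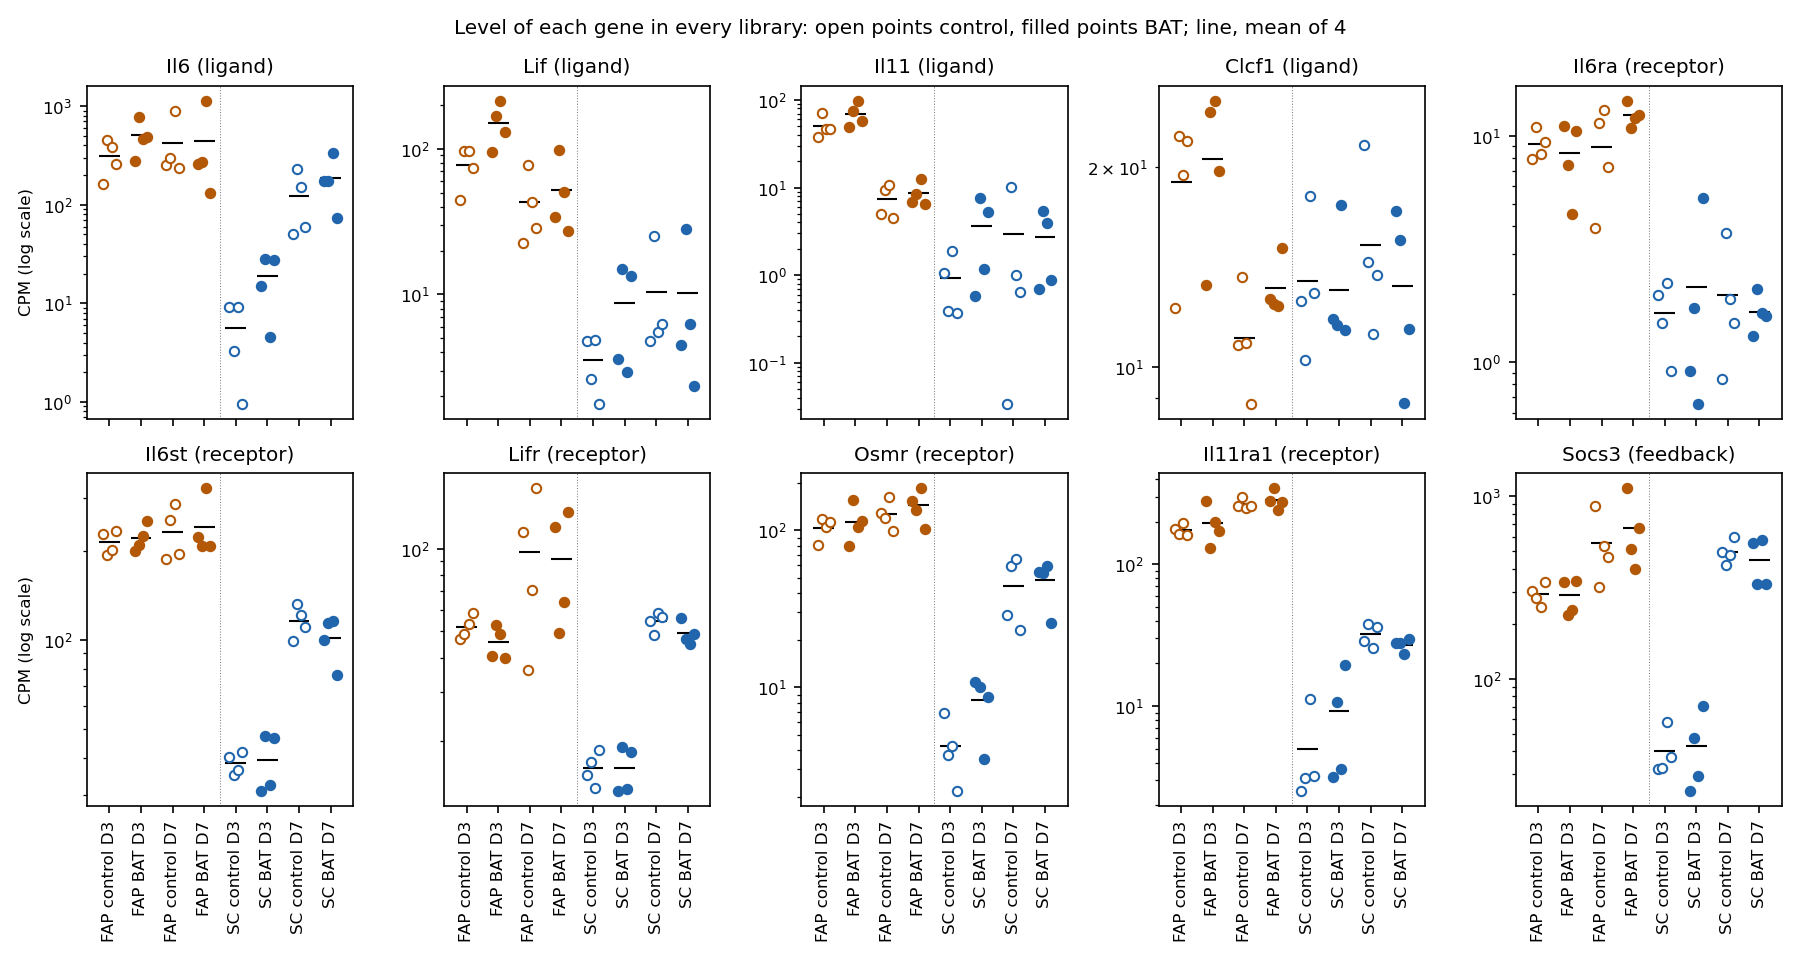
Level in CPM (log axis, its own scale in each panel) of each gene in every library; open points are control and filled points BAT, orange FAPs and blue satellite cells (SC), and the line is the mean of 4 libraries. Il6, Osmr and Socs3 of satellite cells stand higher at day 7 than at day 3 without overlap, and Clcf1 lies at 8.81 to 25.1 CPM in all 32 libraries.

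The receptor genes were also richest in FAPs. Il6st (chromosome 13, 112464070 to 112510086, plus strand) was 228, 193, 200 and 233 CPM in control FAPs at day 3 and 187, 254, 286 and 194 CPM at day 7. Control satellite cells held 40.3, 34.9, 36.3 and 41.8 CPM at day 3 and 98.7, 132, 121 and 110 CPM at day 7. The shared chain was therefore present in both cell types on both days, and no satellite cell library reached a FAP library.

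Osmr (chromosome 15, 6813577 to 6874969, minus strand), the oncostatin M receptor, was 80.5, 118, 105 and 114 CPM in control FAPs at day 3 and 6.86, 3.69, 4.24 and 2.19 CPM in control satellite cells. At day 7 the satellite cells held 29.0, 59.1, 65.4 and 23.1 CPM and the FAPs 99.2 to 164 CPM. Satellite cells of day 7 lay above those of day 3 in every library and below the FAPs of their day.

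Lifr (chromosome 15, 7090614 to 7197489, plus strand), the LIF receptor, was 47.1 to 58.5 CPM in control FAPs and 13.5 to 18.5 CPM in control satellite cells at day 3. At day 7 the control satellite cells had 48.5 to 58.5 CPM, while the control FAPs spread from 36.1 to 166 CPM, so that the cell types overlapped. Lifr was thus the one receptor for which satellite cells came within the range of FAPs at day 7.

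Il11ra1 (chromosome 4, 41699989 to 41769474, plus strand), the IL-11 receptor, was 162 to 196 CPM in control FAPs and 2.53 to 11.2 CPM in satellite cells of that muscle at day 3, and 248 to 300 CPM against 25.5 to 38.0 CPM at day 7. Its values are uncertain, since a near-identical gene, Il11ra2, lies in the annotation, its counts were not whole numbers in 32 of the 32 libraries, and its annotated locus overlaps another gene, as does that of Clcf1. The library of 11.2 CPM was the macrophage-rich one, which also held 13.9 CPM of Pdgfra. Il6ra (chromosome 3, 89864059 to 89913196, minus strand) had group means of 8.40 to 12.3 CPM in FAPs and 1.66 to 2.16 CPM in satellite cells.

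Socs3 (chromosome 11, 117966079 to 117970047, minus strand), the feedback inhibitor, was 301, 278, 246 and 338 CPM in control FAPs at day 3 against 32.2, 32.5, 58.2 and 37.1 CPM in control satellite cells. At day 7 it was 881, 319, 533 and 467 CPM in control FAPs and 494, 420, 473 and 596 CPM in control satellite cells. The cell types were far apart at day 3 and overlapped at day 7.

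Satellite cells were then tested against FAPs of the same mice, with edgeR's quasi-likelihood test over all genes, the mouse as a block and a Benjamini-Hochberg adjusted p under 0.05 as the call. In control muscle at day 3 all 10 genes of the family were lower in satellite cells, where 71.7% of all 16329 genes were called, 35.8% as higher and 35.9% as lower. The median log2 difference of the family was -3.82, beside 0.03 over all genes. For 9 of the 10, all but Clcf1, every satellite cell library lay below every FAP library, which held for 29.2% of all genes tested. With the mouse as a block, the p-values rest on how much the difference within a mouse varied from mouse to mouse.

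The differences at day 3 in control muscle were 71.6-fold for Il6 (log2 difference -6.16 ± 0.44 SE, adjusted p = 2.17e-05), 65.1-fold for Il11 (-6.02 ± 0.37, 1.21e-05) and 24.7-fold for Lif (-4.63 ± 0.21, 4.29e-06). For the receptors they were 45.2-fold for Il11ra1 (-5.50 ± 0.43), 28.0-fold for Osmr (-4.81 ± 0.16), 6.18-fold for Il6ra (-2.63 ± 0.21), 6.05-fold for Il6st (-2.60 ± 0.09) and 3.54-fold for Lifr (-1.82 ± 0.13), with adjusted p from 1.95e-06 to 3.71e-05. Socs3 was 8.08-fold lower (-3.01 ± 0.13, adjusted p = 3.44e-06). The ligand genes Il6 and Il11 and the receptor gene Il11ra1 thus differed most, and the shared chain and Lifr least among those without overlap.

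Clcf1 was 1.53-fold lower (-0.61 ± 0.19, adjusted p = 0.0244), and this call was lost without the mouse coded 3a (adjusted p = 0.102) or 3b (0.117). Without both mice that gave macrophage-rich libraries, which left 2 mice, the log2 differences were -6.35 for Il6, -6.57 for Il11, -6.13 for Il11ra1 and -1.01 for Clcf1, and all 10 genes were still called lower. Without the mouse that has no code in the labels Il11 was -6.63. In BAT muscle at day 3 all 10 were again lower (66.5% of all genes called, 31.1% higher and 35.4% lower), from 34.3-fold for Il6 to 1.77-fold for Clcf1. There the median of the family was -3.52 beside -0.04 over all genes, and 8 genes, all but Clcf1 and Il6ra, had every satellite cell library below every FAP library, beside 25.4% of all genes. All 10 were also called lower without the mice of macrophage-rich libraries. Clcf1 was again lost without 3a (adjusted p = 0.0651) or 3b (0.0563), Il6 was -4.47 without the mouse with no code and Il11 -4.18 without 3a.

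At day 7 the gap was smaller for most of the family. In control muscle 8 of the 10 were lower in satellite cells and none higher, where 45.1% of all genes were called and 22.6% as lower. The family's median log2 difference was -2.15, beside 0.05 over all genes. Il6 was 4.73-fold lower (-2.24 ± 0.34, adjusted p = 0.00177), Lif 6.34-fold (-2.66 ± 0.22) and Il11ra1 11.2-fold (-3.49 ± 0.15). Socs3 (-0.48 ± 0.22, adjusted p = 0.113) and Clcf1 (0.02 ± 0.22, adjusted p = 0.951) did not pass.

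Without the mouse coded 5 the Il6 difference was -1.99 ± 0.36 (adjusted p = 0.00763). Il11 (-3.11 ± 0.87, adjusted p = 0.0229) was no longer called without the mouse coded 1a (adjusted p = 0.0820) or 5 (0.0865) or without the block (-1.68, 0.246), and was -2.37 without 1b and -4.19 without 3. Lifr (-1.04 ± 0.29, adjusted p = 0.0219) was lost without 1a (0.0755) or 1b (0.0976). For 5 of the 10 genes every satellite cell library lay below every FAP library, beside 10.8% of all genes. In BAT muscle at day 7, 9 of the 10 were lower (49.9% of all genes called, 24.5% higher and 25.3% lower), the exception being Clcf1 (-0.47 ± 0.19, adjusted p = 0.0785). The family's median there was -1.87, beside 0.03 over all genes, and 5 genes had every satellite cell library below every FAP library, beside 11.5% of all genes. Il6 was 2.63-fold lower there (-1.39 ± 0.20, adjusted p = 0.000932, and 0.0595 without the block), and -1.14 ± 0.12 without the mouse coded 5. The call of Socs3 (-0.99 ± 0.27, adjusted p = 0.0171) was lost without the mouse coded 1a, 1b or 3 (0.0766 to 0.0804).

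**Figure D2:**
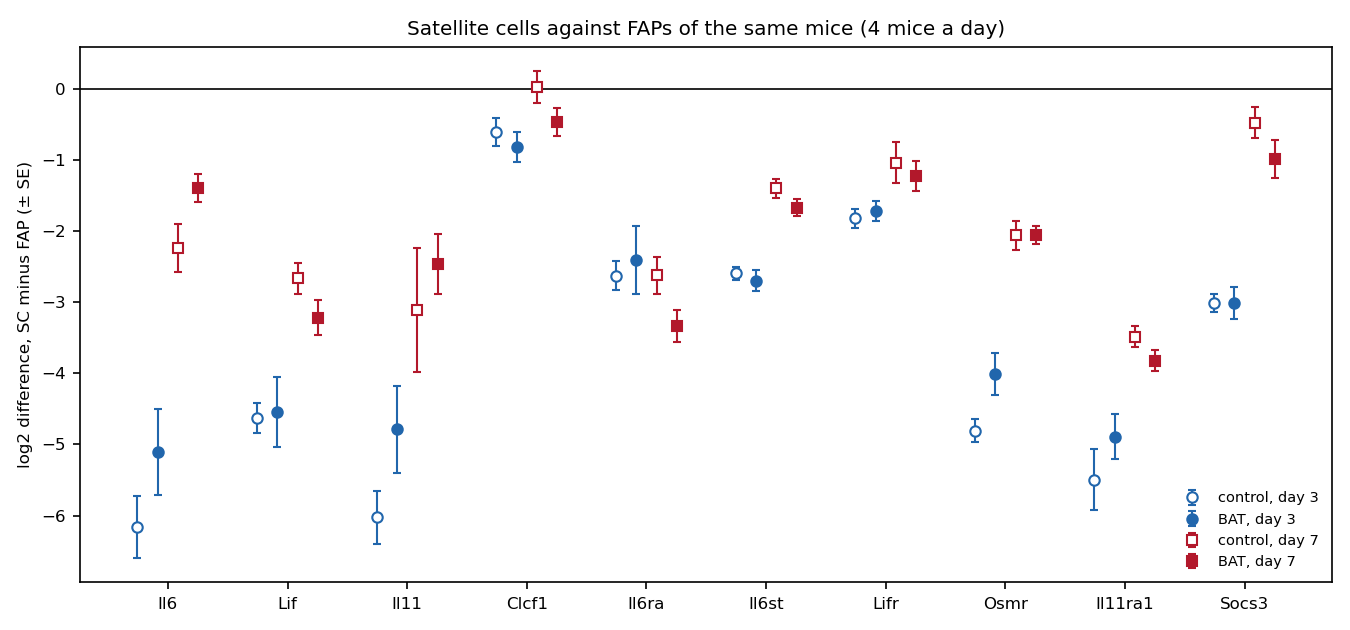
Log2 difference between satellite cells and FAPs of the same mice for each gene (error bars, SE; 4 mice a day), at day 3 in blue circles and at day 7 in red squares, control open and BAT filled. All points of day 3 lie below 0, from -6.16 for Il6 to -0.61 for Clcf1 in control muscle, and those of Il6, Osmr and Socs3 lie nearer to 0 at day 7.

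A sorted satellite cell library can hold FAP messages, so the level of each gene in a satellite cell library was set beside the FAP library of the same mouse and treatment, together with 8 FAP markers (Pdgfra, Ly6a, Dcn, Lum, Col1a1, Col3a1, Cd34 and Pi16). At day 3 the median marker stood at 0.301% to 7.26% of the FAP level in the 8 satellite cell libraries, and at day 7 at 1.52% to 4.65%. Il6 in control satellite cells was 0.598% to 3.53% (median 1.45%) of the FAP level at day 3 and 17.1% to 77.9% (median 22.6%) at day 7. In BAT muscle Il6 was 0.929% to 9.95% (median 3.99%) at day 3 and 29.5% to 67.7% (median 59.7%) at day 7.

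Il6 exceeded the highest of the 8 markers in 0 of the 8 satellite cell libraries of day 3 and in 8 of the 8 of day 7. The satellite cell share of Il6 was thus within the range of the FAP markers at day 3, where it exceeded the median marker in 6 of the 8 libraries. At day 7 it was above that range. Markers of other cell types were not part of this comparison. The count of libraries above the highest marker went from 1 to 8 for Lif, from 0 to 6 for Il11, from 3 to 8 for Osmr and from 0 to 4 for Il11ra1. It was 8 on both days for Clcf1, Il6st and Lifr, 7 and 8 for Socs3, and 7 on both days for Il6ra. These shares are a description with no test, and satellite cells may express some of the markers themselves.

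**Figure D3:**
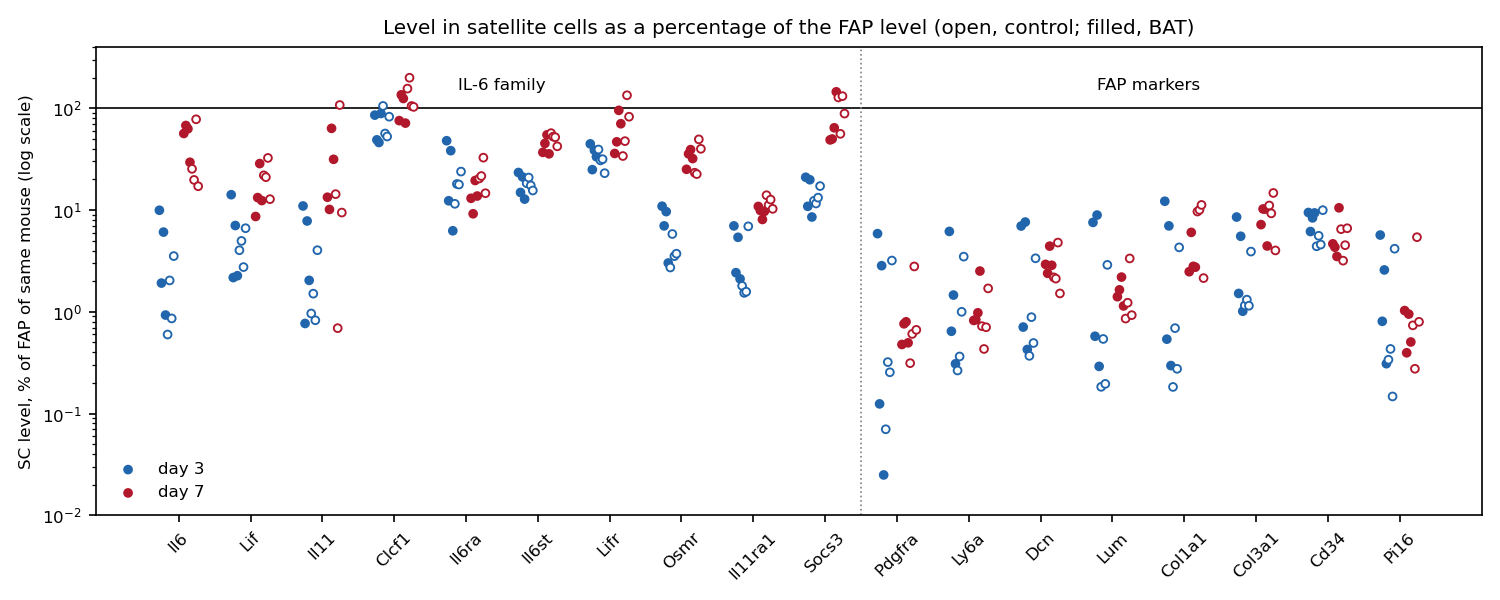
Level in each satellite cell library as a percentage of the FAP library of the same mouse (log axis), for the 10 genes and 8 FAP markers, day 3 in blue and day 7 in red, control open and BAT filled; the line marks 100%. Il6 lies at 0.598% to 9.95% at day 3 and at 17.1% to 77.9% at day 7, while the median marker of a library lies at no more than 7.26%.

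The days were compared next, 4 libraries against 4 of other mice. Each day was a separate deposited table and separate mice, so the day cannot be told apart from these. In control satellite cells 6 of the 10 genes were higher at day 7 and none lower (59.4% of all genes called, 29.7% higher and 29.8% lower). The family's median was 1.42, beside 0.03 over all genes. Il6 rose 17.4-fold (4.12 ± 0.73, adjusted p = 0.000862), Socs3 9.71-fold (3.28 ± 0.19, 2.85e-06), Osmr 8.13-fold (3.02 ± 0.45, 0.000278), Il11ra1 5.11-fold (2.35 ± 0.43, 0.00105), Lifr 2.66-fold (1.41 ± 0.13, 1.92e-05) and Il6st 2.37-fold (1.24 ± 0.14, 5.42e-05). The genes that rose were the IL-6 ligand, 4 receptor chains and the feedback inhibitor, but not Il6ra (-0.06 ± 0.47, adjusted p = 0.915).

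Lif (1.25 ± 0.59, adjusted p = 0.0913, and 0.0303 in DESeq2) and Il11 (1.42 ± 1.16, adjusted p = 0.311) did not pass. Without replicate 2 of day 7, which held the highest Lif and Il11, their values were 0.33 and -1.04. In BAT satellite cells the same 6 genes were called higher (52.9% of all genes called, 28.5% higher and 24.4% lower), with Il6 at 3.07 ± 0.57 (adjusted p = 0.00131) and Socs3 at 3.13 ± 0.34 (6.39e-05). The median of the family there was 1.22, beside 0.11 over all genes. Il11ra1 (1.32 ± 0.47, adjusted p = 0.0338) was lost in 6 of the settings that left out 1 library (adjusted p 0.0549 to 0.0807). Without the macrophage-rich libraries the rise of Il6 was 4.40 ± 0.81 in control and 3.17 ± 0.63 in BAT satellite cells, and that of Il11ra1 in control 3.06 ± 0.23. Without the mouse coded 5 the rise of Il6 was 4.09 ± 0.78 and 2.62 ± 0.54.

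Markers of other cells moved with the day in the satellite cell libraries. The summed level of 5 pericyte and smooth muscle genes in control muscle was 188 to 305 CPM on day 3 and 1829 to 3322 CPM on day 7, and Kcnj8, a pericyte gene, was 0.457 to 1.51 CPM and 21.7 to 95.9 CPM. The 4 Schwann cell genes summed to 12.6 to 40.1 CPM and 65.3 to 384 CPM, and the 8 FAP genes to 219 to 1101 CPM and 1843 to 10092 CPM. All genes of these 3 lists were above 0 in every satellite cell library. Their part in the rise of Il6, Socs3 and the receptor messages was not tested, and in sorted bulk RNA fewer cells of a type cannot be told apart from less RNA per cell.

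In FAPs fewer genes of the family were called than in satellite cells, and so were fewer of all genes (59.4% in control satellite cells). In control FAPs 2 of the 10 genes were higher at day 7 and 1 lower, near the shares of all genes (23% called, 11.5% higher and 11.4% lower). Il11 fell 6.53-fold (-2.71 ± 0.36, adjusted p = 0.00169), while Socs3 rose 1.96-fold (0.97 ± 0.25, 0.0197) and Il11ra1 1.60-fold (0.67 ± 0.17, 0.0164). The call of Socs3 was lost without replicate 2 or 3 of day 3 (0.0558 and 0.0641) and that of Il11ra1 without replicate 2 or 4 of day 3 (0.0524 and 0.0632). The family's median was 0.27, beside 0.09 over all genes.

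In BAT FAPs 4 genes were called (22.9% of all genes called, 10.3% higher and 12.6% lower). Il11 fell 7.85-fold (-2.97 ± 0.31, adjusted p = 0.00109) and Lif 2.72-fold (-1.44 ± 0.44, 0.0400), and Socs3 (1.24 ± 0.28, 0.0131) and Lifr (1.00 ± 0.26, 0.0239) rose. The median of the family was 0.27, beside 0.04 over all genes. Lif was lost in 6 and Lifr in 4 of the settings that left out 1 library, and without replicate 2 of day 7 Lif was -2.05. Without the macrophage-rich library Clcf1 (-0.79) and Il11ra1 (0.81) were called as well as those 4. The 22.9% above is of the fit with that library, and the share without it is not given here. Il6 in FAPs did not pass in control (0.46 ± 0.47, adjusted p = 0.505) or BAT muscle (-0.13 ± 0.60, 0.899), and without the mouse coded 5 its values were -0.20 and -1.15 (adjusted p = 0.701 and 0.0501). Il11 is thus the member whose fall between the days in FAPs was called in both muscles.

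The difference between cell types was tested between the days in 1 model for control muscle. For 6 of the 10 genes the satellite cell level came nearer to the FAP level at day 7, and for none farther (23.8% of all genes called, 15.4% with a change above 0 and 8.39% below). The changes were 3.96 ± 0.62 for Il6 (adjusted p = 0.00196), 2.77 ± 0.29 for Osmr (0.000328), 2.55 ± 0.29 for Socs3 (0.000440), 2.05 ± 0.45 for Il11ra1 (0.00994), 1.99 ± 0.33 for Lif (0.00275) and 1.21 ± 0.15 for Il6st (0.000635). The median of the family was 2.02, beside 0.12 over all genes. The call of Lif was lost without the block (adjusted p = 0.0769), and without the mouse coded 5 the change of Il6 was 4.19 ± 0.63. The same 6 genes were called without the mice of macrophage-rich libraries.

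**Figure D4:**
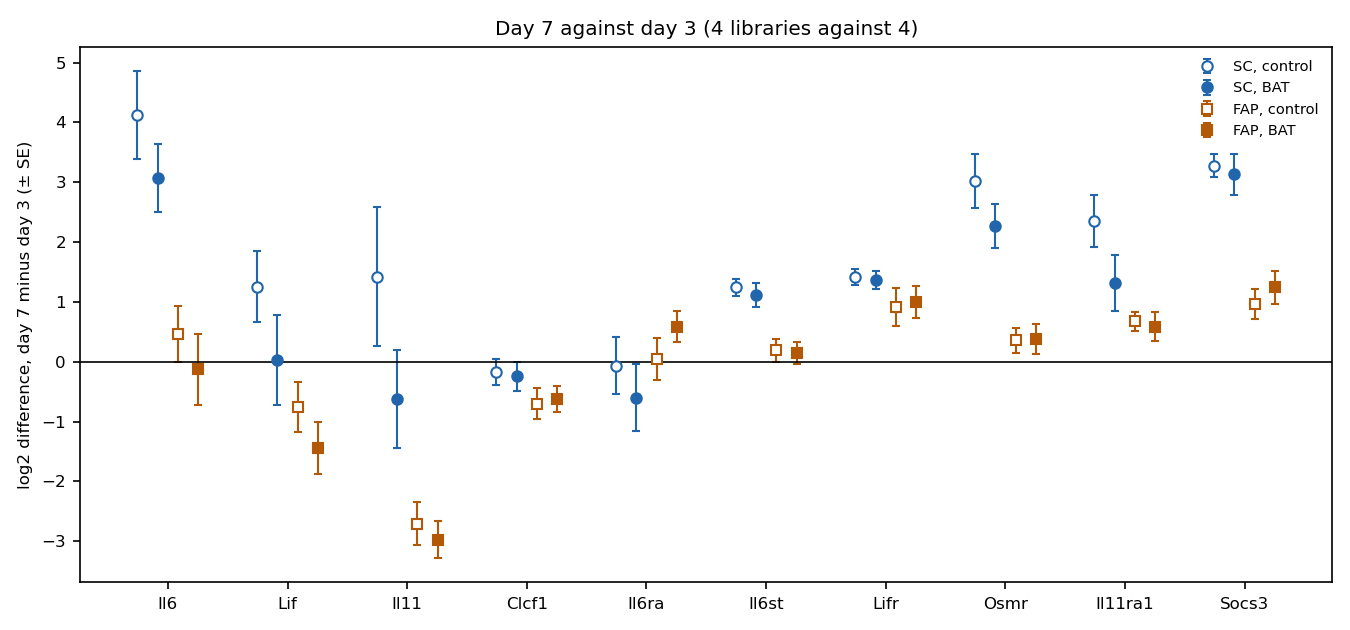
Log2 difference between day 7 and day 3 for each gene (error bars, SE; 4 libraries against 4), satellite cells in blue circles and FAPs in orange squares, control open and BAT filled. Il6, Osmr and Socs3 of satellite cells stand at 2.27 to 4.12, and Il11 of FAPs at -2.71 and -2.97.

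The effect of the BAT graft was tested within mice. No gene of the family was called in any of the 4 comparisons of BAT with control muscle, in which 0% (SC, day 3), 0.0178% (SC, day 7), 0.0188% (FAP, day 3) and 0% (FAP, day 7) of all genes were called. At an unadjusted p under 0.05 stood 1, 1, 3 and 1 of the 10 genes, beside 472 of 15631, 1261 of 16868, 730 of 15948 and 783 of 16021 genes in all. DESeq2 called Il6 and Lif in FAPs at day 3 and no gene of the family in the other 3 comparisons. The shares of all genes above are those of edgeR, and those of DESeq2 are not given here.

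FAPs at day 3 gave the largest values beyond their error. Lif was higher in BAT muscle in 4 of 4 mice, by 1.72- to 2.19-fold (0.99 ± 0.10, adjusted p = 0.0633 in edgeR and 7.40e-12 in DESeq2). Il6 was higher in 4 of 4 mice, by 1.20- to 1.88-fold (0.72 ± 0.12, adjusted p = 0.462 and 0.000154), and so was Il11, by 1.06- to 2.06-fold (0.47 ± 0.16, 0.957 and 0.449). Without a filter on low counts edgeR gave 0.000134 for Lif and 0.00584 for Il6. Without replicate 1, the macrophage-rich library and its partner, it gave 0.000637 and 0.0284, and without another replicate 0.193 to 0.897 and 0.646 to 0.975. Without both mice of macrophage-rich libraries it gave 8.43e-07 and 0.0172. These values rest on the 2 mice left and cannot be read as stronger support than the fit of 4 mice. The mouse with no code, also left out there, had no macrophage-rich FAP library. Without the block both had an adjusted p of 0.999.

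The 3 ligand messages were thus higher in each FAP pair at day 3, while the call depended on the test. Osm, the oncostatin M gene, was 19.7 CPM in the macrophage-rich BAT FAP library and at most 0.727 CPM in the other FAP libraries. In satellite cells of day 3 Osm reached 6.89 CPM in control and 9.20 CPM in BAT muscle (medians 0.0594 and 0.329 CPM). Among the receptors of FAPs at day 3 the log2 differences were -0.16 to 0.13, and Socs3 was at -0.01 ± 0.11. At day 7 in FAPs Lif was 0.29 ± 0.11 (adjusted p = 0.953, higher in 3 of 4 mice) and Il6 -0.13 ± 0.17 (0.955, higher in 2 of 4, and -0.29 ± 0.17 without the mouse coded 5).

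In satellite cells at day 3 Il6 was 1.86 ± 1.01 (adjusted p = 1, higher with BAT in 3 of 4 mice), with 0.95 to 2.71 when each replicate was left out and 1.90 (adjusted p = 0.743) without the mice of macrophage-rich libraries, and Osmr 0.97 ± 0.37 (1, 3 of 4). The highest Il6, 28.0 and 27.7 CPM, came from BAT replicates 2 and 4, which held 7.63 and 19.1 CPM of Pdgfra, beside 0.383 and 0.101 CPM in the other 2. Replicate 4 was also the macrophage-rich library of this group (1777 CPM of macrophage and monocyte genes). Lif and Il11 were also highest in replicates 2 and 4, and the part of FAP or macrophage messages in these values was not tested. At day 7 Il6 was 0.72 ± 0.29 (adjusted p = 0.636, higher in 3 of 4 mice, and 8.07e-06 without a filter), and 0.55 ± 0.32 (0.710) without the mouse coded 5. Socs3 was 0.03 ± 0.31 at day 3 and -0.17 ± 0.17 at day 7.

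**Figure D5:**
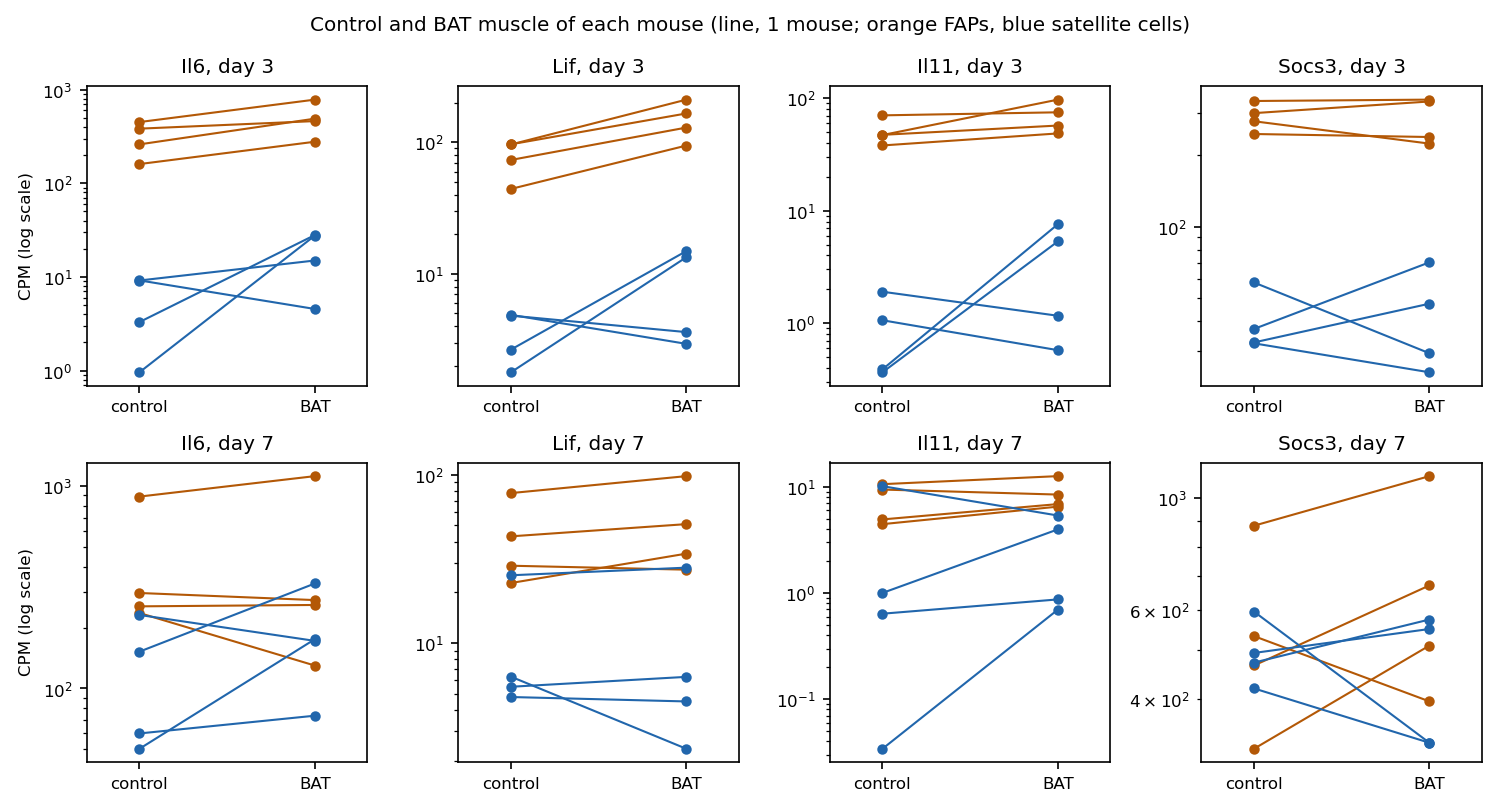
Level in CPM (log axis) of Il6, Lif, Il11 and Socs3 in the control and the BAT muscle of each mouse, joined by a line, FAPs in orange and satellite cells in blue, day 3 above and day 7 below. All 4 FAP lines of Il6, Lif and Il11 slope upward at day 3, by at least 1.06-fold, and the satellite cell lines cross.

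The BAT effect was also compared between the cell types and between the days. The family had 0 calls in these 4, where 0.0229% of all genes (cell types at day 3) and 0% (the other 3) were called. At an unadjusted p under 0.05 stood 550 of 17445, 1205 of 18033, 910 of 17774 and 579 of 17284 genes in all. Of the 10 genes of the family it was 0, 1, 0 and 2. Those 2 were Il6 (-0.85 ± 0.23, unadjusted p = 0.00393) and Lif (-0.69 ± 0.16, 0.00101) in the comparison of days in FAPs, with an adjusted p of 1 for both by edgeR, and Il6 was -1.01 without the mouse coded 5. The medians of the family were 0.44, -0.15, 0.13 and 0.23 for BAT against control in the order above, beside 0.00, 0.00, -0.01 and -0.01 over all genes.

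The wider pathway was read from 5 lists of 45 other genes. Of the 12 signal transduction genes tested, 9 were lower in control satellite cells than in FAPs at day 3 and 1, the adaptor gene Grb2, was higher, beside 35.9% and 35.8% of all genes. Stat3, the main transcription factor of the pathway, was -2.50 ± 0.08 (adjusted p = 1.73e-06) and the kinase gene Jak1 -1.97 ± 0.08 (3.09e-06). At day 7, 4 of the 12 were lower and none higher, beside 22.6% of all genes lower. The median of this list was -0.67 at day 3 and -0.10 at day 7, beside 0.03 and 0.05 over all genes.

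Of the 15 STAT3 target genes 14 were lower in satellite cells of control muscle on day 3 and 12 on day 7, with none higher and medians of -2.17 and -1.14. Over all genes 35.9% and 22.6% were lower, here and for the lists that follow, and the medians were 0.03 and 0.05. At day 7 the smallest p belonged to the acute phase genes Saa3 (-6.84 ± 0.25), Lbp (-5.58 ± 0.31) and Lcn2 (-6.39 ± 0.55), with adjusted p of 2.09e-05, 4.06e-05 and 0.000166. Of the 6 other feedback inhibitors 4 were lower at day 3. At day 7, 2 were lower and 1, Socs2, was higher. Of the other receptors Cntfr, Il27ra and Il11ra2 were lower on both days. Of the other ligands and cofactors, the ciliary neurotrophic factor gene Cntf was higher at day 7.

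Between the days in control satellite cells 7 of the 12 signal transduction genes rose and 1 (Grb2) fell, and 8 of 14 STAT3 target genes rose and 1 (Timp1) fell, beside 29.7% of all genes higher and 29.8% lower. In control FAPs 2 of 12 and 6 of 15 rose and none fell, beside 11.5% and 11.4% of all genes, so that the first count is near the share of all genes. The medians of these lists were 0.94 and 0.99 in satellite cells and 0.28 and 0.47 in FAPs, beside 0.03 and 0.09 over all genes. In the BAT comparisons 1 gene of the lists was called: Saa3 in FAPs at day 3 (2.36 ± 0.15, adjusted p = 0.00581 in edgeR). It was 7.69, 30.2, 8.29 and 13.8 CPM in control and 31.5, 122, 54.4 and 82.2 CPM in BAT muscle (replicates 1 to 4). Saa3 also stood at 1494 and 4048 CPM in the control and BAT FAPs of the day 7 mouse coded 5, whose FAPs held the highest Il6, beside 24.8 to 64.6 CPM in the other FAPs of that day.

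Genes with the most similar course were found by Pearson's r of log2(CPM + 1) over the 32 libraries, among 14547 genes, as a description with no test: all points share the cell types and days. For Il6 they were Steap4 (0.97), Osmr (0.97) and Ecscr (0.96), so that another member of the family was among its nearest 3. For Lif they were Sgk1 (0.96), Inhba and Dok5 (both 0.95), and for Il11 Raet1d, Gmds and Ankrd55 (0.93 to 0.94). For Il6st the nearest was Jak1 (0.99), for Osmr Sulf1 (0.98), for Lifr Smarca2 (0.96), for Il6ra Tnn (0.94), for Il11ra1 the collagen gene Col3a1 (0.99) and for Socs3 Mob3c (0.98). Clcf1 had no close neighbour (Calr-ps, 0.70). Within the family Lif and Il11 had r = 0.93, Il6st and Osmr 0.96, and Lifr and Socs3 0.91, while Clcf1 had at most 0.47 with any other member.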

How the data were processed

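RNA sequencing libraries of sorted satellite cells and FAPs were made from low-input cDNA, per the labels' protocols. The values are expected counts per gene, deposited by the authors as 1 table for each day and not normalised. DRAGEN and mm10 are named in the submitters' processing notes. Versions, annotation, strand and the handling of shared reads were not stated there. Among the 55774 entries for each day, 287 repeats with identical values were dropped. Every column belonged to a sample.

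CPM used the column totals. Counts were rounded (totals moved by at most 0.000343%) and tested with edgeR 4.0.16 in R 4.3.3 (TMM scaling, filterByExpr with a minimum count of 10 and a minimum total of 15, quasi-likelihood test, adjusted p under 0.05), on the libraries of the groups compared. The mouse was a block within a day, as the labels pair muscles by mouse. At day 3, libraries without a mouse code were taken as 1 mouse, an inference. Correlations of paired deviations between BAT and control averaged 0.0308 (SC) and 0.185 (FAP) at day 3 and 0.488 and 0.644 at day 7. The script was tested on simulated data. Alternatives were DESeq2 1.42.0, RLE scaling, no filter, no block, leaving out each library or mouse, and leaving out macrophage-rich libraries.

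All 10 genes were named in every group. From the pathway lists the 3 genes with the smallest p were named, except items that are not reported here, and other list members were chosen after their values were seen. By Pearson's r the 3 nearest genes of a member were found, and some of them named. The members and lists were chosen with earlier results of these data known. Protein motifs were not analysed here. Promoter windows are RefSeq sequences of GRCm38.p6, and coordinates are 1-based from GENCODE M21.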

Additional observations from a re-analysis of the deposited data

Results flagged for a closer look

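In 9 of the 80 sets of 4 libraries (10 genes in 8 groups) 1 library lay far from the other 3 by Dixon's criterion, each time as the highest. For independent, normally distributed values chance gives this in about 1 of 20 sets. Here the sets share mice and libraries and hold untransformed CPM, so that rate need not hold. In FAPs at day 7 the mouse coded 5 had 888 CPM of Il6 in control muscle (the others 236 to 296) and 1121 CPM in BAT muscle (130 to 273), and 324 CPM of Il6st in BAT muscle (207 to 222). In satellite cells at day 7 the mouse coded 3 had 25.2 CPM of Lif in control (4.77 to 6.30) and 28.0 CPM in BAT muscle (2.35 to 6.29), and 10.2 CPM of Il11 in control muscle (0.0341 to 1.00). Clcf1 was 15.1 CPM in replicate 4 of BAT FAPs at day 7 (12.4 to 12.7) and 17.5 CPM in replicate 3 of BAT satellite cells at day 3 (11.4 to 11.8). Il11ra1 was 11.2 CPM in the macrophage-rich control satellite cell library of day 3 (2.53 to 3.19).

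The difference between satellite cells and FAPs of control muscle changed between the days by a test of the interaction for 6 genes: Il6 (3.96 on the log2 scale), Osmr (2.77), Socs3 (2.55), Il11ra1 (2.05), Lif (1.99) and Il6st (1.21).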

How the results depend on the processing

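The counts of called members kept within 1.5 times of the main count under every alternative run, except in these comparisons. For BAT against control in FAPs at day 3 the count of 0 became 2 with DESeq2 and 2 without a filter. It became 2 without the mice of macrophage-rich libraries, which left 2 mice, and 0 to 2 when each replicate was left out. For BAT against control in satellite cells at day 7 it became 1 without a filter, as did the BAT effect between cell types at day 7 (1), and the BAT effect between days in FAPs became 2. For day 7 against day 3 in control FAPs the count of 3 became 5 with DESeq2 and 1 to 6 when each library was left out, and in BAT FAPs the count of 4 became 2 to 6. The shares of all genes in the text belong to the main fits, and those under the alternatives are not given here. The causes were not tested.

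Without the mouse block, 10 and 7 of the 10 genes were lower in satellite cells of control muscle at day 3 and day 7, 10 and 8 in BAT muscle, 6 changed between the days, and 0 were called for BAT. Apart from calls given beside the results, leaving out the block changed 1 call, Il11 between the days (4.29, adjusted p = 0.0284). No called value changed sign under these alternatives. The day 7 against day 3 comparison of control FAPs holds no macrophage-rich library, so that alternative gave no value. The lowest message, Il11 in satellite cells, reaches below 3 counts in 1 library, which limits its fold changes.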
